A study of Mus musculus with 6 samples.

Results

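Peripheral myelin is built from a small set of abundant Schwann cell proteins, and 9 of their genes are described here: Pmp22, Mbp, Mag, Prx, Pmp2, Cnp, Mal, Drp2 and Ncmap. They were chosen by name, as myelin membrane and cytoskeletal genes, and all 9 were matched by symbol to an Ensembl gene ID among the 55335 genes of the deposited table. Polyadenylated RNA of mouse sciatic nerve was sequenced at postnatal day 14. The control group (n = 3) was homozygous for a floxed RhoA allele (RhoAfl/fl, titled flox). The icKO group (n = 3) carried the same floxed alleles together with ChATCreERT2, a tamoxifen-inducible Cre recombinase driven from the choline acetyltransferase gene, which is active in cholinergic neurons such as spinal motoneurons. Both groups therefore share the floxed alleles, and Schwann cells themselves are not a target of this Cre. The labels give neither the induction schedule nor whether control mice received the inducing drug, nor whether each library is a different mouse, so the p-values cover only the spread among these libraries, which may be technical. The question was what RhoA loss aimed at motoneurons does to the myelin transcripts of the nerve that holds their axons.

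Schwann cells wrap the larger axons of a nerve and compact the wrapped membrane into myelin. Compact myelin is held together by small membrane proteins and by basic proteins on the cytoplasmic side, while the innermost turn next to the axon, the channels of cytoplasm and the outer surface keep proteins of their own. Many of these genes are switched on together by the transcription factors Sox10 and Egr2, and gain or loss of some of them, Pmp22 above all, causes inherited neuropathies with abnormal myelin.

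Values are FPKM, fragments scaled to transcript length and to the library's total, and can be compared between genes because they are per length. The depth, estimated from the smallest steps of the values, was 17200000 to 20600000 fragments per library. Rhoa (ENSMUSG00000007815) was at 36.5, 39.0 and 38.0 in the control and 36.4, 33.6 and 33.2 FPKM in the icKO libraries, a difference that did not pass (limma, Benjamini-Hochberg adjusted p = 0.195). The nerve holds the axons of the targeted motoneurons, and Chat, the gene that drives the Cre, was at 0.0123 FPKM in control replicate 1 and 0 in the others. Rhoa RNA of the nerve is therefore a weak check of the deletion and of the labels. Control replicate 2 expressed Xist (46.1 FPKM) and not the Y-linked gene Ddx3y, unlike the other 5 libraries, so only the control group held both sexes. Control replicate 1 and icKO replicate 3 were richest in skeletal muscle transcripts, with 20 muscle genes summing to 1444 and 1729 FPKM there and to between 23.9 and 384.5 FPKM elsewhere. Of 12860 genes tested, 5516 (42.9%) passed in limma on log2(FPKM + 1) at a Benjamini-Hochberg adjusted p under 0.05. Of all tested genes 20.8% were higher and 22.1% lower in icKO nerves, and 57.2% showed no overlap between the groups (28.4% higher, 28.9% lower). In bulk nerve, fewer myelinating cells and less RNA per cell cannot be told apart.

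All 9 genes passed the filter of a mean of at least 1 FPKM. Of these, 4 passed the test, beside 42.9% of all genes and 56.3% of the 261 with a mean of at least 100 FPKM, so the count does not set them apart. Ncmap rose, Mag, Prx and Pmp2 fell, and Pmp22, Mbp, Cnp, Mal and Drp2 did not pass. In 5 of the 9 (Mbp, Mag, Prx, Pmp2 and Ncmap) all icKO libraries lay on 1 side of all control libraries, against 57.2% of all genes. The calls of Ncmap and Mag held in all 20 alternative fits, whereas those of Prx and Pmp2 held in 7 and 14 of them. The genes are taken in turn by their place in the sheath.

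**Figure D1:**
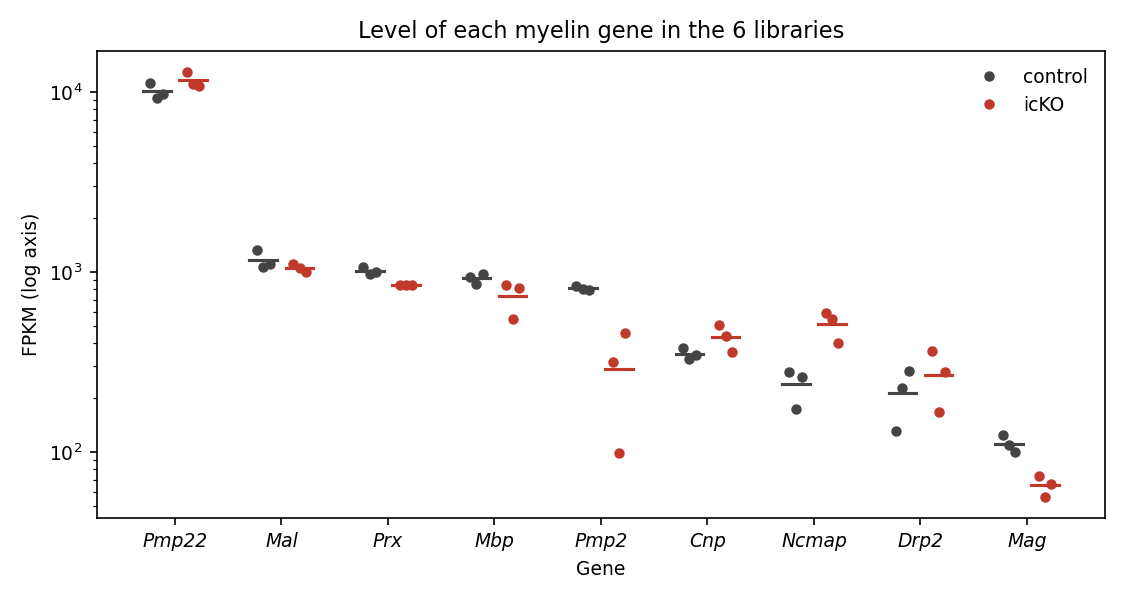
FPKM of the 9 genes (log axis) in the 3 control and 3 icKO libraries. Points are libraries and bars are group means. Pmp22 lies highest, between 9247 and 12883 FPKM, Ncmap is higher and Mag and Pmp2 are lower in all icKO libraries, and the icKO points of Pmp2 spread from 99.1 to 457 FPKM.

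In control nerves the order of the mean levels was Pmp22, Mal, Prx, Mbp, Pmp2, Cnp, Ncmap, Drp2 and Mag. Pmp22 ranked 2 among all 55335 genes in each of the 6 libraries, and Mal, Prx and Mbp ranked between 20 and 45. Among neighbours in the control order, only Mal and Prx and only Ncmap and Drp2 had overlapping ranges. In icKO nerves the order was Pmp22, Mal, Prx, Mbp, Ncmap, Cnp, Pmp2, Drp2 and Mag. There the ranges of all neighbours from Prx down to Drp2 overlapped, while Pmp22 and Mal lay above all other genes and Mag below them. Pmp2 ranked between 25 and 32 of all genes in control and between 47 and 259 in icKO libraries. Ncmap ranked between 82 and 133 in control and between 39 and 54 in icKO libraries. Together the 9 genes made up 5.16% to 6.07% of all FPKM in control and 5.47% to 6.35% in icKO libraries. The part of Pmp22 in the sum of the 9 was 68.9%, 67.1% and 66.6% in control and 73.5%, 74.7% and 71.8% in icKO libraries, without overlap.

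For the 3 genes Mag, Prx and Ncmap, the called members whose promoters are in the RefSeq table used here, the 250 bases before the first listed start are shown with the letters of EGR, SOX and TEAD motifs in capitals, since Egr2, Sox10 and the TEAD factors bind at myelin genes. The motifs searched on both strands were GTGGGNG for EGR factors, ACAATG and ACAAAG for SOX factors and GGAATG for TEAD factors, and no matches shared bases in the stretches shown. The sequences are RefSeq's on GRCm38.p6, on the strand of the gene, at chr7:30914864-30915113 (minus strand) for Mag, chr7:27499074-27499323 (plus strand) for Prx and chr4:135398228-135398477 (minus strand) for Ncmap.
Mag: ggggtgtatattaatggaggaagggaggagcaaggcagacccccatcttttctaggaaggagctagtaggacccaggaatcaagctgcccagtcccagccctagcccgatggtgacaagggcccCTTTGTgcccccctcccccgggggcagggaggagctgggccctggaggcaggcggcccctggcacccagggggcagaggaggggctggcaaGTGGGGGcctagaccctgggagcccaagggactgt
Prx: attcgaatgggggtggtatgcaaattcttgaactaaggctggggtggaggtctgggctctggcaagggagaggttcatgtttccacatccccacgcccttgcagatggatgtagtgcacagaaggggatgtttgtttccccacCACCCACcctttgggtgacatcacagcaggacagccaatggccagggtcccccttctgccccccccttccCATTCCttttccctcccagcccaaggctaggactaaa
Ncmap: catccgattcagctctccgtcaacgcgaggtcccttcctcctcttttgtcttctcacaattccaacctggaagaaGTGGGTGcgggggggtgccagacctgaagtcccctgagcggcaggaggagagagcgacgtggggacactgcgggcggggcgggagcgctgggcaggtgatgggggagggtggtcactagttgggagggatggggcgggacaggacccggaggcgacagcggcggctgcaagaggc
The stretch of Mag held 1 EGR match and 1 SOX match, that of Prx 1 EGR and 1 TEAD match, and that of Ncmap 1 EGR match. Among 32851 stretches of the same length in the table, 28.1% held GTGGGNG, 10.7% ACAATG, 16.5% ACAAAG and 12.6% GGAATG. Over the 12 stretches of the 6 genes in the table (Pmp22 4, Mag 3, Ncmap 2, and 1 each of Mal, Prx and Cnp), 3 held GTGGGNG, 3 ACAAAG, 5 GGAATG and 0 ACAATG, some of them overlapping starts of 1 gene. A match describes the letters only.

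Pmp22 (ENSMUSG00000018217) encodes a tetraspan protein of compact myelin whose dose is known to matter for the sheath. It was at 11230, 9247 and 9659 in the control and 12883, 11087 and 10736 FPKM in the icKO libraries. The lowest icKO library lay below the highest control library, so the groups overlapped. The difference was 0.20 on the log2(FPKM + 1) scale (SE 0.13, 95% interval -0.11 to 0.51) and did not pass (limma, Benjamini-Hochberg adjusted p = 0.241). The genes whose values moved most alike over the 6 libraries were Mrpl24 and Mpst, with root mean square differences of 0.05 and 0.06 in centred log2 values, among 3980 candidates averaging at least 10 FPKM. Genes named as nearest in pattern, here and below, were picked for that likeness, group difference included, so it shows no link between them.

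Mbp (ENSMUSG00000041607) encodes the myelin basic proteins, which bind the cytoplasmic faces of the membrane to each other. It was at 941, 851 and 972 in the control and 849, 545 and 810 FPKM in the icKO libraries. All icKO libraries lay below all control libraries, but icKO replicates 1 and 3 only just, and replicate 2 far. The difference of -0.35 (SE 0.18, 95% interval -0.78 to 0.08) did not pass (limma, Benjamini-Hochberg adjusted p = 0.157). Without icKO replicate 2 it was -0.15. The genes nearest in pattern were Chchd3 and Egfl8, at root mean square differences of 0.05 and 0.06.

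Pmp2 (ENSMUSG00000052468) encodes a fatty acid-binding protein that lies, like the basic proteins, on the cytoplasmic side of compact myelin. It was at 839, 804 and 794 in the control and 314, 99.1 and 457 FPKM in the icKO libraries. The controls differed by a factor of 1.06 from lowest to highest and the icKO libraries by a factor of 4.61, with every icKO library below every control library. The mean of the icKO group was 35.7% of that of control. The log2 difference of -1.74 (SE 0.51, 95% interval -2.97 to -0.51) passed (limma, Benjamini-Hochberg adjusted p = 0.0331). It passed in 2 of the 6 fits that left out 1 library, those without icKO replicate 2 (-1.10) or icKO replicate 3 (-2.20), and missed the threshold without control replicate 1, 2 or 3 or icKO replicate 1 (adjusted p 0.0587 to 0.0817). Its spread within groups, an SD of 0.81 on the log2 scale, was wider than that of 98.1% of the 261 genes at or above 100 FPKM on average. The nearest genes in pattern, at 0.26 and 0.32, were Tubb2b, a beta-tubulin, and Lgals1, which encodes galectin-1. Tubb2b was at 19.0, 10.6 and 38.9 FPKM and Lgals1 at 63.6, 34.4 and 91.1 FPKM in the icKO libraries, with replicate 2 lowest and replicate 3 highest in each. Both were picked for their likeness to Pmp2 over these libraries, so the shared order follows from the choice. The summed level of 15 immediate early genes had the same order, at 434, 310 and 561 FPKM in icKO and 200.3 to 229 FPKM in control libraries, and its part in the spread of Pmp2 was not tested.

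Mal (ENSMUSG00000027375) encodes a small proteolipid of membrane rafts that takes part in sorting myelin components. It was at 1315, 1064 and 1101 in the control and 1099, 1048 and 994 FPKM in the icKO libraries, with overlap. The difference of -0.14 (SE 0.11, 95% interval -0.41 to 0.12) did not pass (limma, Benjamini-Hochberg adjusted p = 0.334). Cldn19, the claudin of Schwann cell tight junctions, was nearest in pattern at a root mean square difference of 0.04, followed by Hmgn3 at 0.05. Cldn19 was at 294, 255 and 251 in the control and 267, 242 and 229 FPKM in the icKO libraries, so that both genes were highest in control replicate 1.

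Ncmap (ENSMUSG00000043924) encodes a membrane glycoprotein of noncompact myelin, the parts of the sheath that keep cytoplasm. It was at 277, 173 and 261 in the control and 594, 550 and 402 FPKM in the icKO libraries. Every icKO library lay above every control library. The mean of the icKO group was 2.17 times that of control, and the rise of 1.13 on the log2(FPKM + 1) scale (SE 0.22, 95% interval 0.60 to 1.66) passed (limma, Benjamini-Hochberg adjusted p = 0.00798). It also passed in each of the 6 fits that left out 1 library (0.92 to 1.29, adjusted p 0.00745 to 0.0304). The nearest genes in pattern, at 0.15 and 0.16, were Slx1b and Spop, the latter a substrate adaptor of a ubiquitin ligase, at 75.2, 65.4 and 75.6 in the control and 172, 168 and 135 FPKM in the icKO libraries.

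Mag (ENSMUSG00000036634) encodes an adhesion protein of the innermost myelin membrane, facing the axon. It was at 124, 110 and 100.2 in the control and 73.4, 56.4 and 66.3 FPKM in the icKO libraries, so that every icKO library lay below every control library. The mean of the icKO group was 58.8% of that of control. The difference of -0.76 (SE 0.13, 95% interval -1.06 to -0.45) passed (limma, Benjamini-Hochberg adjusted p = 0.00446), and passed again in each fit that left out 1 library (-0.85 to -0.66). The nearest genes in pattern were Tex2 at 0.06 and the plexin gene Plxnb3 at 0.07. Tex2 was at 37.4, 33.6 and 32.9 in the control and 21.2, 17.3 and 21.1 FPKM in the icKO libraries. Mag, Mbp, Cnp and Mal are also genes of oligodendrocytes, the myelinating cells of the central nervous system. Of the 9 other oligodendrocyte genes examined, 6, with Mog, Olig1, Olig2, Opalin and Nkx2-2 among them, were under 1 FPKM in every library, and the 9 summed to 5.59 to 5.91 FPKM in control and 5.83 to 7.94 FPKM in icKO libraries. Among them Mobp was at 0.131, 0.0759 and 0.0719 in the control and 1.79, 1.94 and 1.52 FPKM in the icKO libraries, below the filter for testing, and of the 2 tested, Cldn11 rose and Hapln2 fell, calls that held in 1 and 5 of the 6 fits that left out 1 library.

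Cnp (ENSMUSG00000006782) encodes a phosphodiesterase tied to the membrane skeleton of the cytoplasmic channels. It was at 380, 327 and 345 in the control and 504, 441 and 361 FPKM in the icKO libraries. Only icKO replicate 3 fell within the control range. The difference of 0.30 (SE 0.14, 95% interval -0.03 to 0.63) did not pass (limma, Benjamini-Hochberg adjusted p = 0.125). Without icKO replicate 3, which is rich in muscle transcripts, it was 0.43 and passed (adjusted p = 0.029), and without both muscle-rich libraries it was 0.49 (adjusted p = 0.0298). Smox, a spermine oxidase gene, was nearest in pattern, at 0.06.

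Prx (ENSMUSG00000053198) encodes periaxin, a scaffold under the outer Schwann cell membrane that links through Drp2 to dystroglycan and the basal lamina. It was at 1068, 976 and 996 in the control and 843, 844 and 847 FPKM in the icKO libraries. Every icKO library lay below every control library, and the icKO libraries differed by a factor of only 1.005. The difference of -0.26 (SE 0.08, 95% interval -0.46 to -0.06) passed narrowly (limma, Benjamini-Hochberg adjusted p = 0.0416). It did not pass in any of the 6 fits that left out 1 library (-0.29 to -0.22, adjusted p 0.0732 to 0.11) and passed in 7 of all 20 alternatives. Its within-group SD of 0.05 was larger than that of only 2.68% of the 261 genes at this level. Dnm1l, a dynamin-related gene of mitochondrial fission, and Secisbp2l followed it most closely, each at 0.03.

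Drp2 (ENSMUSG00000000223) encodes dystrophin-related protein 2, the partner of periaxin. It was at 131, 225 and 280 in the control and 362, 167 and 276 FPKM in the icKO libraries. The groups overlapped, although icKO replicate 1 lay above every control library and control replicate 1 below every icKO library, with libraries of each group differing by factors of 2.15 and 2.16. The difference of 0.34 (SE 0.36, 95% interval -0.52 to 1.20) did not pass (limma, Benjamini-Hochberg adjusted p = 0.478), and without the muscle-rich control replicate 1 and icKO replicate 3 it was -0.03. The within-group SD of 0.56 was wider than that of 94.6% of the 261 genes, whereas that of Prx, whose protein it binds, was 0.05. Rpl22, a ribosomal protein gene, at 18.1, 29.9 and 39.2 in the control and 46.5, 23.5 and 33.2 FPKM in the icKO libraries, was nearest in pattern at 0.09, followed by Col16a1 at 0.20.

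**Figure D2:**
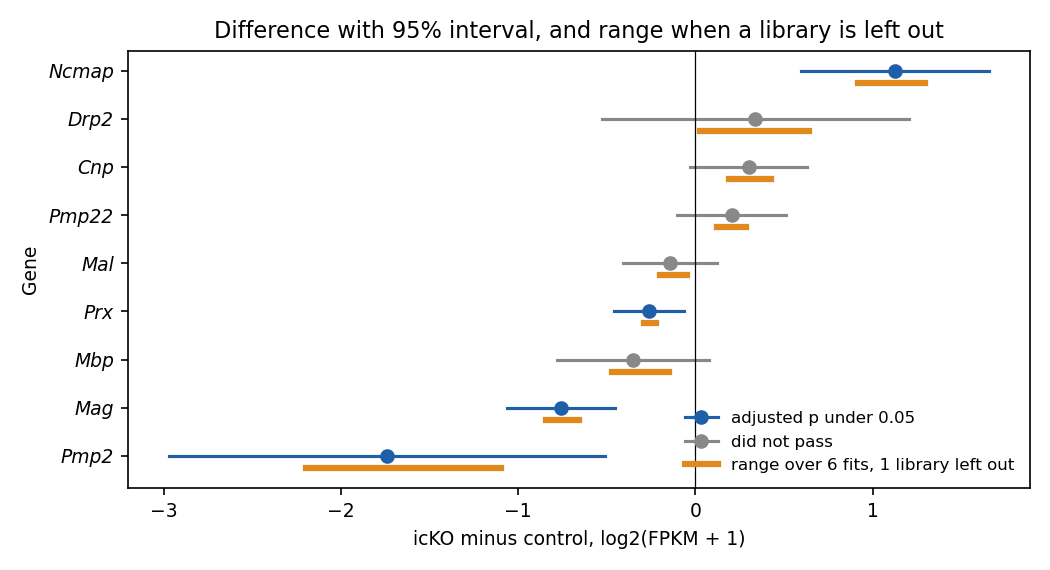
Difference of each gene between icKO and control on the log2(FPKM + 1) scale, as a point with its 95% interval from limma, in blue where the adjusted p was under 0.05. Orange bars span the 6 fits that left out 1 library. The bars of Mag (-0.85 to -0.66) and Ncmap (0.92 to 1.29) stay clear of 0, while that of Drp2 reaches from 0.03 to 0.64.

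Within icKO nerves the libraries differed in which myelin genes they held least of. Set against the control mean, icKO replicate 2 was lowest for Pmp2 (-3.04 on the log2 scale), Mag (-0.98), Mbp (-0.76) and Drp2 (-0.34). It was not lowest for Ncmap (1.21), Cnp (0.33) or Pmp22 (0.14), for which replicate 3 was lowest (0.76, 0.04 and 0.10). The icKO replicates 1 and 2 were poor in muscle transcripts (23.9 and 39.1 FPKM summed over 20 genes) and replicate 3 was rich in them (1729 FPKM). With each library's mean muscle level as a covariate, Mag and Ncmap passed. Prx and Pmp2 did not (limma, Benjamini-Hochberg adjusted p = 0.0933 and 0.0583), with differences of -0.25 and -1.43, against -0.26 and -1.74 without the covariate.

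**Figure D3:**
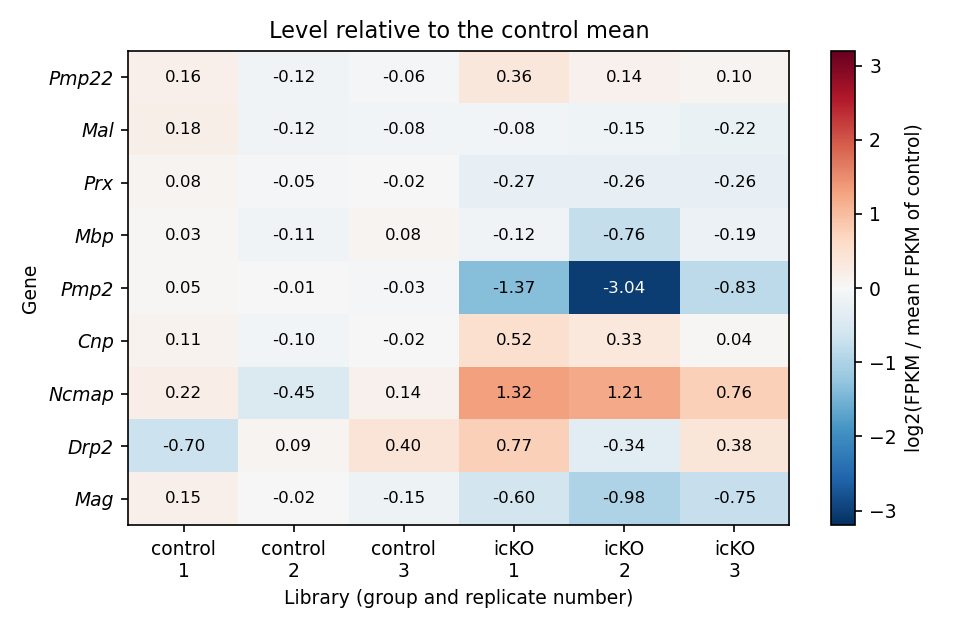
Level of each gene in each library as log2 of its FPKM over the control mean, with the value in each cell. The row of Pmp2 is near 0 in the 3 control libraries and lies at -1.37, -3.04 and -0.83 in the icKO libraries, whereas that of Prx is -0.27, -0.26 and -0.26.

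Ratios between the 9 genes within a library do not depend on a factor that scales the whole library. Quantile scaling, which replaces values by their rank within each library, can alter them. Of the 36 pairs, 25 (69.4%) had ratios that did not overlap between the groups, against 56.3% of all pairs of tested genes and 67.2% of pairs of genes at or above 100 FPKM on average, so the count is near the background of abundant genes. With 3 libraries a group, a two-sided exact permutation test cannot go below p = 0.1, which all 25 reached, with 0.144 after Benjamini-Hochberg adjustment over the 36 pairs. None can therefore pass, and the ratios are given as values. Ncmap and Pmp2 were each in 7 non-overlapping pairs of 8, Ncmap always relatively higher and Pmp2 always relatively lower in icKO nerves. Mag was relatively lower in 6 of its 8 pairs, and Drp2, with its wide spread, was in 3.

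The largest difference was that of Ncmap to Pmp2. The ratio was 0.33, 0.216 and 0.329 in control and 1.89, 5.55 and 0.881 in icKO libraries, a 7.33-fold difference of the geometric means (2.87 on the log2 scale). It was 2.17 on the log2 scale without icKO replicate 2 and 3.50 without icKO replicate 3. Between the called genes with the firmest differences, the ratio of Ncmap to Mag was 2.24, 1.58 and 2.61 in control and 8.08, 9.74 and 6.07 in icKO libraries, a 3.72-fold difference. The geometric mean of this ratio went from 2.10 to 7.82.

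Pmp22 to Mal was 8.54, 8.69 and 8.77 in control and 11.7, 10.6 and 10.8 in icKO libraries, although the levels of both genes overlapped between groups. Pmp22 to Prx was 10.5, 9.48 and 9.70 in control and 15.3, 13.1 and 12.7 in icKO libraries. Relative to Mbp, Pmp22 was at 11.9, 10.9 and 9.94 in control and 15.2, 20.4 and 13.3 in icKO libraries. The log2 differences of these ratios were 0.35, 0.47 and 0.56. The ratio of Cnp, which did not pass by itself either, to Mal was 0.289, 0.308 and 0.313 in control and 0.459, 0.421 and 0.363 in icKO libraries.

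In other pairs the ratios of the groups overlapped. Cnp to Pmp22 was 0.0338, 0.0354 and 0.0357 in control and 0.0391, 0.0398 and 0.0336 in icKO libraries (exact permutation p = 0.4). Mal to Prx was 1.23, 1.09 and 1.11 in control and 1.303, 1.24 and 1.17 in icKO libraries (exact permutation p = 0.2), with a log2 difference of 0.12. Without control replicate 1 these 2 groups of ratios no longer overlapped (0.17), which happens more easily with fewer libraries. The difference was 0.21 without both muscle-rich libraries. Prx to Mbp was 1.14, 1.15 and 1.03 in control and 0.993, 1.55 and 1.05 in icKO libraries (exact permutation p = 0.9), with a log2 difference of 0.09 that turned to -0.11 without icKO replicate 2. Prx to Drp2, the scaffold and its partner, overlapped as well, with Drp2 at 0.122, 0.231 and 0.282 of Prx in control and 0.429, 0.198 and 0.326 in icKO libraries. Since no pair could pass in this design, these p-values do not show that the ratios were equal.

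**Figure D4:**
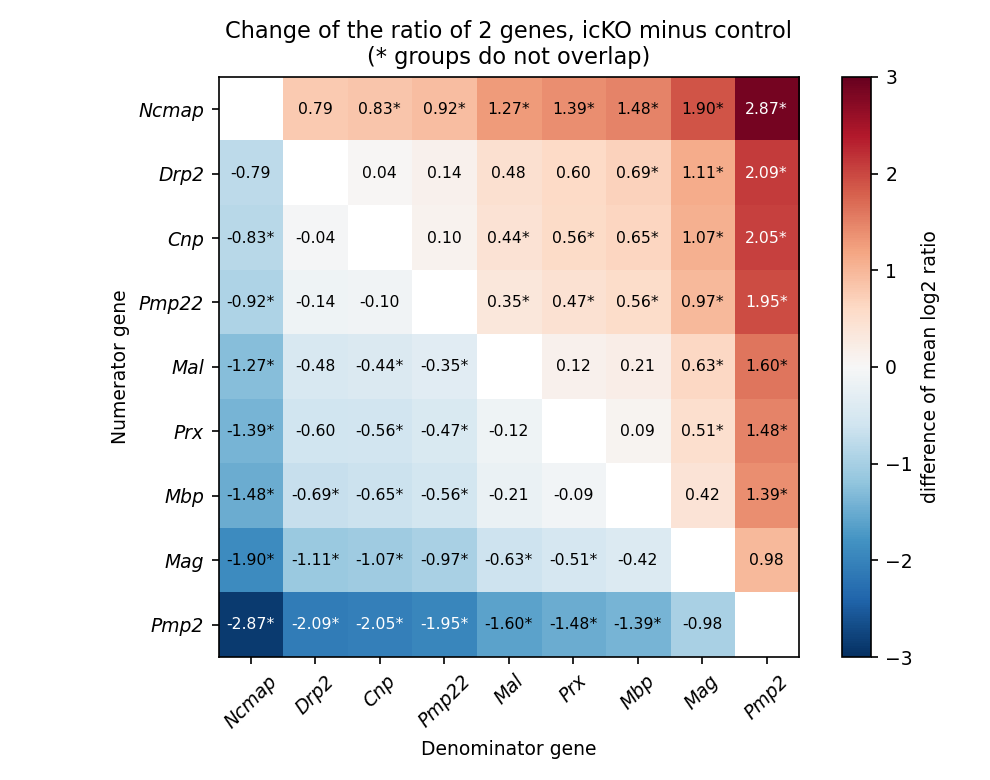
Difference of the log2 ratio of each pair of genes (row over column) between icKO and control, with genes ordered by their own difference. A star marks pairs whose groups do not overlap. The pairs of Ncmap (top row) are positive and those of Pmp2 (right column) reach 2.87, while Cnp to Pmp22 (0.10) and Prx to Mbp (0.09) lie near 0.

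Other genes of the myelin sheath moved in both directions as well. Of 17 tested, 5 were higher, 2 lower and 10 did not pass, beside 42.9% of all genes, with a median log2 difference of -0.08 against -0.01 over all tested genes. Gjc3, a connexin gene of glia, rose from 121 ± 5.76 to 201 ± 10.9 FPKM (SD, n = 3 each) and passed without any 1 library. Pllp, which encodes plasmolipin, a tetraspan protein related to Mal, was at 438, 233 and 220 in the control and 606, 666 and 503 FPKM in the icKO libraries, and its rise passed in 2 of the 6 fits that left out 1 library. The gap junction gene Gjb1 was at 99.9 ± 7.63 and 84.2 ± 6.95 FPKM and did not pass (limma, Benjamini-Hochberg adjusted p = 0.0843). Without control replicate 2 or 3 or icKO replicate 1, 2 of the 17 were higher, without icKO replicate 2, 3 were, and the lower ones numbered 0 or 1 in every fit that left out a library.

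The dystroglycan complex, to which Prx and Drp2 attach, moved in both directions. Of 12 tested genes, 3 rose, 6 fell and 3 did not pass, beside 42.9% of all genes that passed (20.8% higher, 22.1% lower). The falls numbered 3 without control replicate 2 or 3 or icKO replicate 1. Sntb1, which encodes a syntrophin, an adaptor that binds dystrophin-like proteins, fell from 18.03 ± 0.97 to 7.75 ± 1.09 FPKM (SD, n = 3 each). Dmd, the dystrophin gene, fell from 5.94 ± 0.59 to 3.56 ± 0.93 FPKM, and passed in 3 of the 6 fits that left out 1 library. Utrn, the dystrophin homologue of many tissues, was at 33.0, 36.3 and 13.4 in the control and 37.3, 34.4 and 30.9 FPKM in the icKO libraries and did not pass (limma, Benjamini-Hochberg adjusted p = 0.371).

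Enzymes that make the lipids of myelin gave 7 falls, 0 rises and 4 that did not pass among 11 tested, with a median log2 difference of -0.50. Of all tested genes 22.1% were lower and 20.8% higher, with a median of -0.01. Sqle, a sterol enzyme gene, fell from 56.2 ± 12.5 to 14.6 ± 2.21 FPKM (SD, n = 3 each). Fasn, fatty acid synthase, fell from 96.3 ± 22.0 to 46.2 ± 5.42 FPKM. Of 14 adipocyte genes in the same libraries, 11 fell and 2 rose, with summed levels of 836 to 903 FPKM in control and 301 to 418 FPKM in icKO libraries, and their part in the falls of lipid enzymes was not tested. Leaving out single libraries gave 5 to 7 falls of lipid enzymes and 9 to 11 falls of adipocyte genes.

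Other genes of inherited demyelinating neuropathy gave 3 rises, 2 falls and 7 that did not pass among 12 tested. Of all tested genes 42.9% passed, so the count does not set these genes apart. The rises were Mtmr2, a phosphoinositide phosphatase, from 22.1 ± 0.58 to 53.4 ± 5.57 FPKM, and its relatives and partners Sbf1, from 11.7 ± 0.55 to 17.5 ± 1.75 FPKM, and Sbf2, from 24.5 ± 0.54 to 35.7 ± 4.95 FPKM (SD, n = 3 each). All 3 passed in each fit that left out 1 library, while the falls numbered 1 without control replicate 2 and 0 without control replicate 3.

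Among 16 tested regulators of myelination, 3 rose, 5 fell and 8 did not pass, beside 42.9% of all genes that passed (20.8% higher, 22.1% lower). Sox10 was at 169 ± 5.37 and 175 ± 19.4 FPKM (SD, n = 3 each), with overlap. Egr2 was at 10.8, 9.32 and 41.2 in the control and 75.0, 11.7 and 62.6 FPKM in the icKO libraries. Its difference of 1.19 did not pass (limma, Benjamini-Hochberg adjusted p = 0.271). Within the icKO group Egr2 was lowest in replicate 2, as were Mag, Mbp, Pmp2 and Drp2. Among controls it was highest in replicate 3, where Mag and Pmp2 were lowest and Mbp and Drp2 highest. A link between Egr2 and these genes was not tested. Pou3f1, a factor of promyelinating Schwann cells, rose from 15.7 ± 1.65 to 34.1 ± 14.4 FPKM and passed in 4 of 6 fits that left out 1 library. Srebf2, the regulator of sterol synthesis, fell from 51.8 ± 0.84 to 32.4 ± 1.67 FPKM. Wwtr1 was at 7.77, 10.2 and 30.2 in the control and 39.7, 40.1 and 35.9 FPKM in the icKO libraries, and passed in 1 of 6 such fits. Without control replicate 2, 0 regulators were higher, without control replicate 3, 1 was, and 4 or 5 were lower without any single library.

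Markers of other Schwann cell states were measured beside these. Of 10 tested genes of immature and nonmyelinating Schwann cells, 6 rose, 1 fell and 3 did not pass, beside 42.9% of all genes that passed. Without control replicate 2 or 3, 4 rose, and 5 or 6 rose without any other single library. The summed level of the 11 listed was 112 to 130 FPKM in control and 176 to 232 FPKM in icKO libraries. Gfap, an intermediate filament gene of nonmyelinating Schwann cells, rose from 2.64 ± 0.24 to 15.4 ± 8.68 FPKM (SD, n = 3 each). Sox2 rose from 3.87 ± 0.38 to 8.99 ± 1.22 FPKM and the sodium channel gene Scn7a from 44.6 ± 3.99 to 92.2 ± 19.6 FPKM. The gene that fell was L1cam, from 8.38 ± 0.96 to 4.95 ± 0.31 FPKM. Ngfr, Jun and Cadm2 did not pass (limma, Benjamini-Hochberg adjusted p = 0.683, 0.712 and 0.433). Of 7 genes that mark the Schwann cell lineage, 4 rose and 1 fell, with 3 rises when any library other than icKO replicate 3 was left out. Foxd3 rose from 26.1 ± 2.86 to 55.7 ± 4.32 FPKM, and S100b, a calcium-binding protein gene of Schwann cells, fell from 323 ± 29.6 to 88.1 ± 8.69 FPKM. The sum of the 7 was 874 to 928 FPKM in control and 926 to 978 FPKM in icKO libraries, with overlap. The part of these shifts in the differences of the 9 myelin genes was not tested.

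**Figure D5:**
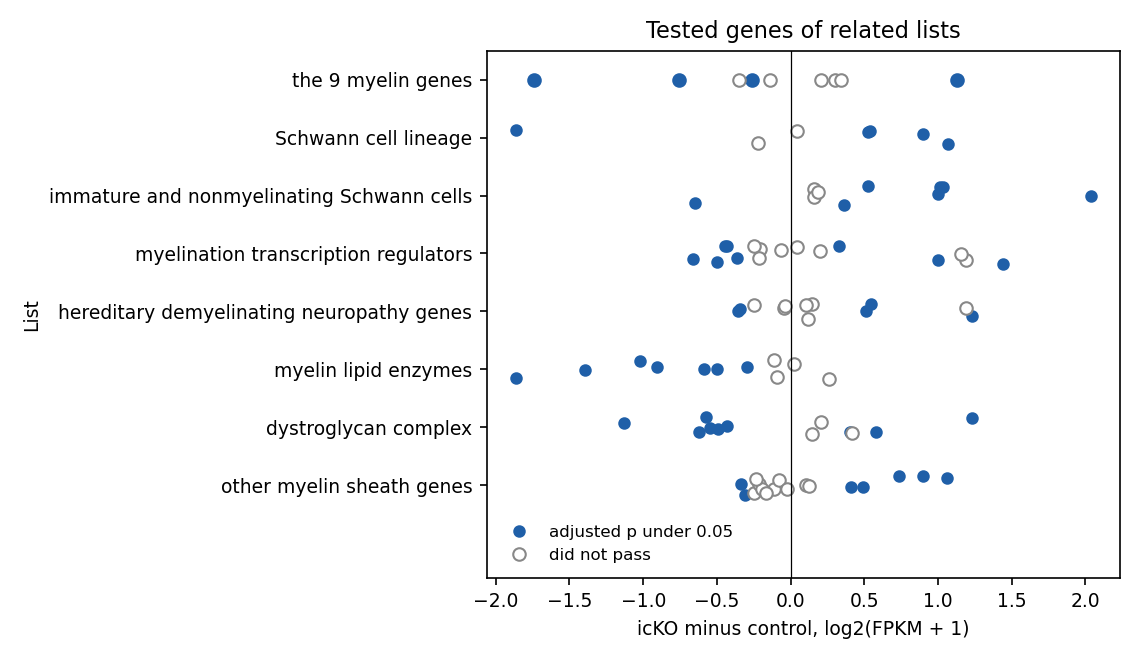
Difference between icKO and control on the log2(FPKM + 1) scale for tested genes of 7 related lists, without the 9 myelin genes, which form the top row. Each point is a gene, filled in blue where the adjusted p was under 0.05, and the vertical scatter has no meaning. Filled points lie on both sides of 0 in 7 of the 8 rows, while all 7 of the lipid enzymes are to the left.

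Transcripts of axons and of other cells of the nerve were measured in the same libraries. Of 8 tested axonal genes, 5 rose and 1 fell, beside 42.9% of all genes that passed. The neurofilament gene Nefl rose from 2.10 ± 0.29 to 12.6 ± 2.86 FPKM (SD, n = 3 each), and Nefh and Nefm with it. Uchl1, the gene that fell, went from 34.7 ± 2.10 to 17.5 ± 1.04 FPKM and passed in all 6 fits that left out 1 library. Tubb3 and Stmn2 did not pass (limma, Benjamini-Hochberg adjusted p = 0.906 and 0.434). The rises numbered 4 without icKO replicate 3 and 3 without any other single library. Axonal genes summed to 49.3 to 52.4 FPKM in control and 49.95 to 63.8 FPKM in icKO libraries. Of 12 fibroblast genes 2 rose and 6 fell, with Lum, a matrix proteoglycan gene, from 205 ± 87.2 to 28.8 ± 6.83 FPKM. Without control replicate 1, 9 fibroblast genes fell, and 4 fell without control replicate 2 or 3 or icKO replicate 1 or 2. Of 7 perineurial genes 1 rose and 1 fell, of 8 endothelial genes 1 rose and 3 fell, the rises of both lists being lost in most fits that left out 1 library, and of 10 tested macrophage genes 0 passed in limma, and 0 at an unadjusted p under 0.05, but 8 were lower without control replicate 1. Of 19 tested muscle genes 1 fell, Pvalb, and 12 were lower without icKO replicate 3. All 15 tested immediate early genes either rose (9) or did not pass (6), with Fosl2 from 3.88 ± 0.53 to 22.2 ± 3.33 FPKM, and Junb and Zfp36 among the rises. Without control replicate 3, 6 of them rose, and 7 or 9 rose without any other single library.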

How the data were processed

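Polyadenylated RNA of sciatic nerve was sequenced in 6 libraries, 3 per group, and groups and replicate numbers come from the sample titles. The authors deposited 1 table of FPKM values with Ensembl gene IDs. The build was GRCm39 and the named tools were STAR, StringTie 1.3.1c, FastQC 0.11.2 and DESeq2 1.16.1, per the submitters' processing notes, which give no role or order. For the annotation release, strandedness and multiply mapped reads, nothing is given in the sources used here. FPKM is relative to the library, so a rise of very abundant genes lowers the others, and StringTie estimates of genes with many transcripts can vary with the assembly. Symbols came from GENCODE release M21 (another build, GRCm38) for 55154 of the 55335 IDs, used without coordinates.

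Depth was estimated from 621 to 676 genes per library with 1 annotated transcript, as the most frequent product of low FPKM and transcript length. The 9 genes had at least 400 estimated fragments in every library even at their shortest coding transcript (Mag), so none rested on a few fragments. Whether the spread of each gene exceeds counting error was not tested. That of Prx was very small in icKO libraries (SD 2.26 FPKM at a mean of 844 FPKM). Count models were not used, since whole fragments were not recovered. The test was limma 3.58.1 (R 4.3.3, two-sided, variance trend, no covariate) on log2(FPKM + 1), which understates changes of low genes, over genes averaging at least 1 FPKM, with Benjamini-Hochberg adjustment over all of them. Ratios were tested with exact permutation in scipy 1.17.1. The procedure was tested on simulated data. Alternatives were other pseudocounts, filters, scalings, limma options, a replicate block, a muscle covariate and leaving out libraries. The 9 genes, the 16 other lists and the alternatives were chosen with earlier results of these data known. Named genes are the 9, the 2 nearest in pattern to each, up to 3 called genes of each list with the largest differences, and a few others chosen after their values were seen. Some genes that the rule names are not reported here.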

Additional observations from a re-analysis of the deposited data

How the results depend on the processing

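Mag and Ncmap kept their direction and their call in all 20 alternative fits. Prx passed in 7 of 20 and Pmp2 in 14 of 20, each in 1 direction throughout. Of the 9 genes, 4 passed in the fit as reported, 2 without a filter on low values, 2 with the muscle covariate and 2 to 4 when 1 library was left out. Of all tested genes, 42.9% passed as reported, 20% without a filter, 39.3% with the muscle covariate and 29.1% to 42.6% without 1 library. Without a filter 30465 genes were tested. Over all genes, 5516 passed as reported and 3308 with a mean of at least 5 FPKM, where fewer genes, 6888, were tested. Leaving out 1 library gave 3728 to 5476. Drp2 changed sign without the 2 muscle-rich libraries (-0.029), and Pmp22 had a difference of 0 with quantile scaling, since it ranked 2 in each library. Scaling to the Schwann cell lineage list, whose genes themselves moved both ways, shifted the median of all genes to -0.13 and gave 1550 higher and 3207 lower calls, against 2670 and 2846 as reported. Under it Mal also passed (-0.28, limma adjusted p = 0.0464). Cnp passed with array weights (0.40, adjusted p = 0.0341). The causes of these changes were not tested.

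With the replicate number as a block, 4596 genes (35.7% of those tested) and 3 of the 9 passed. Prx did not (limma adjusted p = 0.094), with the same difference of -0.26 and a larger SE (0.10 against 0.08). Same-numbered libraries did not deviate together (correlations of -0.10, 0.04 and -0.06 across genes), and control replicate 1 correlated best with icKO replicate 3 (0.11). With 3 libraries a group, such correlations cannot exclude a pairing, and the labels state none. Of the 36 ratios, 25 did not overlap with FPKM + 1, 25 to 28 without 1 library and 30 without both muscle-rich libraries. Smaller groups fail to overlap more easily, and the share over all pairs was not computed for these settings. The range is therefore no measure of stability. Each of the 9 genes had at least 400 estimated fragments in every library.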
